A study of Mus musculus with 13 samples.

Results

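The vascular endothelial growth factor (VEGF) and angiopoietin ligands and receptors were followed in whole-liver RNA-seq of mice as a set of 10 genes, named by symbol, among the 22048 genes of the count table. They comprised the VEGF family ligands Vegfa, Vegfc and Pgf, the VEGF receptors Kdr, Flt1 and Flt4, the angiopoietins Angpt1 and Angpt2, and the receptors Tek and Tie1. Each matched 1 row of the table. The 3 groups were 6 control livers that kept their hepatic stellate cells (3 male, 3 female), 4 livers depleted of stellate cells (3 female, 1 male) and 3 livers with stellate cells kept, taken 72 h after partial hepatectomy (2 male, 1 female). Stellate cells wrap the sinusoids, the capillaries of the liver, as pericytes and store vitamin A. In partial hepatectomy some lobes are cut away and the rest of the organ grows back. Genotype, strain, age and the means of depletion are not given in the sources used here, nor is it stated whether the controls had a sham operation or treatment. The labels do not say that each library came from a separate animal, so p-values measure the spread between these samples.

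VEGF ligands bind receptor tyrosine kinases that lie mainly on endothelial cells. VEGF-A, made in the liver largely by hepatocytes, signals through KDR, while FLT1 binds it tightly and signals weakly. Placental growth factor, the product of Pgf, binds FLT1, and VEGF-C binds FLT4, which sinusoidal as well as lymphatic endothelium carries. Angiopoietin-1, commonly made by perivascular cells, activates TEK (also called TIE2) and quiets vessels. Angiopoietin-2, made mostly by endothelium, opposes or mimics it depending on context, and TIE1 is a partner of TEK. After hepatectomy the sinusoids regrow behind the hepatocytes, and this system is known to take part.

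All 10 genes were annotated as protein coding in GRCm38 (GENCODE M21). Vegfa lay at chr17:46016993-46032369, Vegfc at chr8:54077606-54187096 and Pgf at chr12:85166635-85177790. Kdr (chr5:75932827-75978458) and Flt1 (chr5:147561604-147726011) lay on 1 chromosome, and Flt4 at chr11:49609263-49652739. Angpt1 lay at chr15:42424723-42676977 and Angpt2 at chr8:18690263-18741562. Tek (chr4:94739289-94874976) and Tie1 (chr4:118471191-118490061) shared a chromosome. The counts cover exons, so they hold all isoforms of a gene together, among them the soluble and full-length forms of Flt1 and Kdr.

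Promoter stretches are shown for Kdr, Flt1 and Tek, receptors that were low in the same libraries, and for Vegfc, a VEGF ligand whose level fell after depletion. They come from RefSeq (GRCm38.p6) and end just before the annotated gene or, for Vegfc, before the RefSeq start. Capitals mark GGAA, the core of ETS factor sites, read on either strand, so that TTCC marks a match on the other strand. No 2 motifs searched share letters here, since the others gave no match in these stretches.
Kdr, chr5:75978459-75978705, minus strand: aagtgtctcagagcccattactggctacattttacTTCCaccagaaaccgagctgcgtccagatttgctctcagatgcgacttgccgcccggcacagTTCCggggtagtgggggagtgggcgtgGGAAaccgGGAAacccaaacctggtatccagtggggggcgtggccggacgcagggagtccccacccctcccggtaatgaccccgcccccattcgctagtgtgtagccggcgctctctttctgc
Flt1, chr5:147726012-147726261, minus strand: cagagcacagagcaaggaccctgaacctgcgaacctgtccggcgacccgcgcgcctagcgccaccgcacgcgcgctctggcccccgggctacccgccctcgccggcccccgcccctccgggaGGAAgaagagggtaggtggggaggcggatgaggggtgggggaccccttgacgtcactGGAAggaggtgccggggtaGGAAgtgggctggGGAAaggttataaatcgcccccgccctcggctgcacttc
Tek, chr4:94739039-94739288, plus strand: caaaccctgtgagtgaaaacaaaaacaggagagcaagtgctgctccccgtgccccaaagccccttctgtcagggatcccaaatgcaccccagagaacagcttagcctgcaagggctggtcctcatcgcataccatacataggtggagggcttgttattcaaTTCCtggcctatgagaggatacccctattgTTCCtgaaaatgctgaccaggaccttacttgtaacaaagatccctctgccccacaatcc
Vegfc, chr8:54077282-54077531, plus strand: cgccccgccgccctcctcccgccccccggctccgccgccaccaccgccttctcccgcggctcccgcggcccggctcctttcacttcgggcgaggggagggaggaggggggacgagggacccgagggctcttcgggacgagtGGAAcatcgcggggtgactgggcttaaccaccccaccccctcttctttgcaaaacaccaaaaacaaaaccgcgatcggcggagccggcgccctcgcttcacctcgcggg
GGAA occurred 4 times in the Kdr stretch, 4 times in that of Flt1, 2 times in that of Tek and 1 time in that of Vegfc. The motif was held by 93.4% of 32851 RefSeq promoter windows of 250 bases, with a median of 3 matches, so nearly every promoter holds it. RefSeq windows of 300 bases were at hand for 8 of the 10 genes (10 windows; none for Angpt1 and Angpt2). The hypoxia-response core ACGTG, on either strand, occurred in 1 of the 10 windows, the second window of Vegfa, against 19.6% of all windows. The forkhead core TGTTTAC, on either strand, occurred in 0 of 10 windows, against 3.65% of all.

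Totals were 35360991 to 42784362 counts per library in controls, 37848305 to 51008737 after depletion and 39633635 to 46228433 after hepatectomy, so that 3 counts stood for 0.0588 to 0.0848 CPM (read counts scaled to the library total). The 21 stellate cell markers checked the labels: their summed CPM was 368 to 931 in controls and 413 to 768 after hepatectomy, and 17.8, 17.7, 20.4 and 85.7 in depleted livers 1 to 4. Between 8 and 9 of the 21 were at 0 counts in depleted livers 1 to 3, and 0 in depleted liver 4. Lrat, the enzyme that makes the stored retinyl esters, fell from 37.0 ± 21.7 (SD, n = 6) to 0.752 ± 1.19 CPM (SD, n = 4; log2 fold change -5.93 ± 0.93 (SE), edgeR quasi-likelihood test, adjusted p = 0.000474). The defining markers of endothelium were present in every library, with 0 of 18 pan-endothelial markers at 0. Their level was lowest in 1 control and 1 hepatectomised liver. The summed CPM of those 18 genes was 162 in control 6 against 300 to 389 in the other controls, 126 in hepatectomised liver 2 against 278 and 215 in the others, and 474, 441, 385 and 293 in depleted livers 1 to 4. Both libraries were low in some other markers too. Summed stellate and myeloid marker CPM was 368 and 70.1 in control 6, against at least 652 and 347 in the other controls. It was 413 and 109 in hepatectomised liver 2, the lowest of its group. Summed cholangiocyte marker CPM, at 100 and 104 in these libraries, lay within the range of the others of their group. In bulk RNA, fewer cells of a type and less RNA per cell cannot be told apart.

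Per kilobase of exon, Vegfa was the most abundant of the 10 transcripts in controls, with 27.2 ± 6.97 CPM per kb (SD, n = 6), and Kdr followed with 6.33 ± 2.86. Tek (3.45), Flt4 (3.38), Tie1 (3.01) and Vegfc (1.90 CPM per kb) came next and neighbours among them overlapped. Flt1, at 1.07 ± 0.444 CPM per kb, lay wholly below Vegfc. Angpt2 (0.263) and Angpt1 (0.246 CPM per kb) were scarce and could not be ordered, with Angpt2 the higher in 2 of 6 controls. The mean of Pgf, 0.0235 CPM per kb, was below both, and its range lay wholly below that of Angpt1 but overlapped that of Angpt2. On the same scale the means of Vegfa and Kdr kept ranks 1 and 2 in all 3 groups. Vegfa lay wholly above Kdr in each group, but the range of Kdr overlapped that of the next gene in each. Kdr exceeded Flt4 in 2 of 4 depleted livers. In depleted livers the means of Angpt1 (1.46 ± 1.58) and Angpt2 (1.17 ± 0.553) were above that of Vegfc (0.938 ± 0.146 CPM per kb), but the ranges of the 3 overlapped, so they could not be ordered. After hepatectomy Vegfc, at 1.94 ± 0.425 CPM per kb, lay wholly above both angiopoietins, as in controls.

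**Figure D1:**
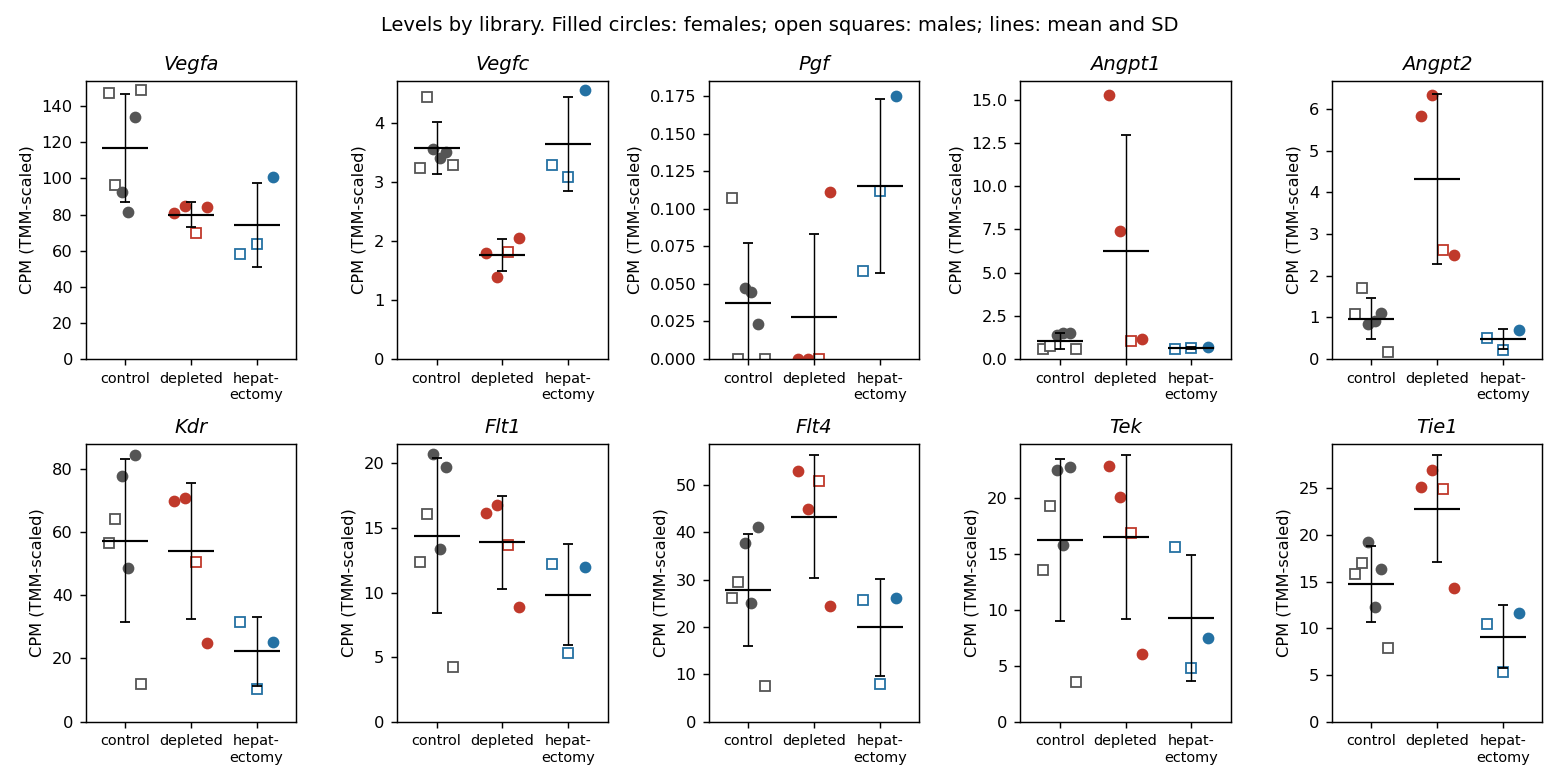
TMM-scaled CPM of the 10 genes (vertical axes, each from 0) in control, depleted and hepatectomised livers, 1 symbol per library; horizontal lines are group means and bars 1 SD. The 4 depleted livers sit below every other library for Vegfc (1.39 to 2.05 CPM) and above every other library for Angpt2 (2.49 to 6.32 CPM), while control 6 and hepatectomised liver 2 hold the lowest Kdr, Flt1, Flt4 and Tek values.

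Stellate cell depletion was set against control to ask which parts of the system differ in a liver depleted of its sinusoidal pericytes. The changes were among the ligands, and no receptor passed the test. Vegfc fell to 0.487 of its control level and Angpt2 rose 3.98-fold. The Angpt1 estimate was a 4.28-fold rise, but depleted livers 3 and 4 lay within the control range. That Angpt1 call was lost in 4 of 23 alternatives. Of the 9 genes that passed the filter on low counts, 2 rose and 1 fell at an adjusted p under 0.05 (edgeR quasi-likelihood test, Benjamini-Hochberg adjustment over 13831 genes). Over all genes tested 33.9% were called, 18.9% higher and 15% lower, so the share of the set that was called was close to that of all genes. Groups did not overlap for 2 of the 9, Vegfc and Angpt2, against 28.4% of all genes.

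Vegfc encodes the ligand of FLT4. Its level in controls ran from 3.24 over a median of 3.46 to 4.45 CPM, and in depleted livers 1 to 4 it was 1.80, 1.39, 1.82 and 2.05 CPM. Every depleted liver lay below every control. The log2 fold change was -1.04 ± 0.21 (SE; adjusted p = 0.00225, edgeR), and Vegfc passed the test under all 23 alternative settings tried. The level of the pan-endothelial markers was higher in the depleted livers, so relative to them any gene that falls must show a wider gap. The log2 level of Vegfc minus the mean log2 level of the 18 markers was -1.73 to -0.23 in controls and -3.54 to -2.59 in depleted livers. On that scale the ranges of the 2 groups did not overlap for 44.1% of all genes.

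Vegfa ranged from 81.4 over a median of 115 to 149 CPM in controls and was 81.1, 84.7, 69.7 and 84.1 CPM in depleted livers 1 to 4. The depleted livers lay together at the foot of the wide control range, and the groups overlapped. The log2 fold change of -0.57 ± 0.22 missed the threshold (adjusted p = 0.0642, edgeR). It passed with DESeq2 (-0.56, adjusted p = 0.043) and in the edgeR fits without control 3 (-0.67, adjusted p = 0.0465) or control 4 (-0.71, adjusted p = 0.0219). Pgf was near the limit of detection: the 6 controls had 4, 0, 2, 2, 1 and 0 counts, the depleted livers 0, 0, 0 and 5, and the hepatectomised livers 2, 4 and 7. It did not pass the filter and was not tested, so no statement on a difference is made at this depth.

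Angpt2 ran from 0.180 over a median of 0.997 to 1.71 CPM in controls. In depleted livers 1 to 4 it was 5.83, 6.32, 2.62 and 2.49 CPM. All 4 exceeded the highest control, with livers 1 and 2 well above livers 3 and 4. The log2 fold change was 1.99 ± 0.50 (adjusted p = 0.00843, edgeR), and it passed under all 23 alternatives. Relative to the pan-endothelial markers, Angpt2 also lay wholly above the controls, at -2.47 to -1.39 log2 units in depleted livers against -4.11 to -2.48 in controls. On that scale 44.1% of all genes did not overlap.

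Angpt1 behaved unevenly. Controls held 0.589 to 1.5 CPM with a median of 1.06, and split by sex: the 3 males had 0.589 to 0.741 CPM and the 3 females 1.37 to 1.5 CPM. Depleted livers 1 to 4 held 15.3, 7.39, 1.07 and 1.14 CPM. The first pair, both female, were far above every control, while the male liver 3 was above the male controls and the female liver 4 was below the female controls. The log2 fold change of 2.10 ± 0.60 passed the test (adjusted p = 0.016, edgeR). The call was lost without depleted liver 1 (1.33, adjusted p = 0.0596), with limma-voom (1.56, adjusted p = 0.101), among females alone (2.46, adjusted p = 0.0688) and with the replicate number as a block (1.30, adjusted p = 0.0894).

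**Figure D2:**
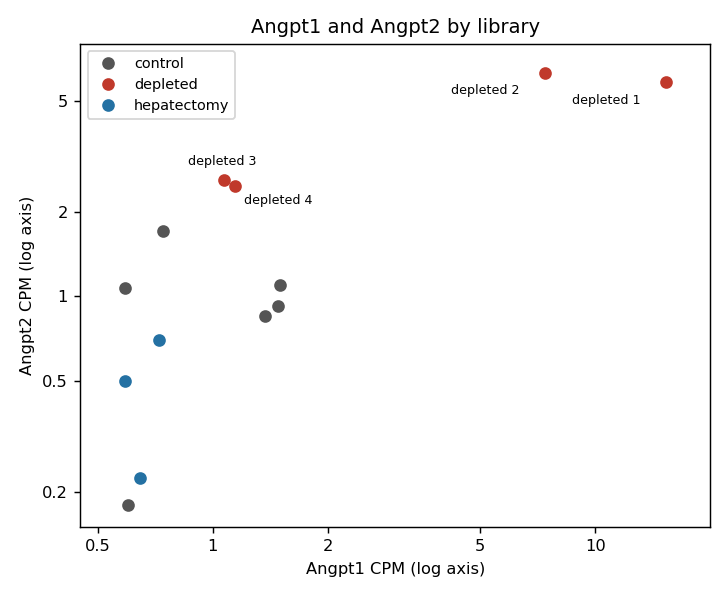
Angpt2 against Angpt1, both in TMM-scaled CPM on log axes, 1 point per library. Depleted livers 1 and 2 stand at 15.3 and 7.39 CPM of Angpt1 and 5.83 and 6.32 CPM of Angpt2; depleted livers 3 and 4 exceed the controls in Angpt2 alone.

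The angiopoietins were set against each other within each library, since both compete for TEK. The log2 ratio of Angpt2 to Angpt1 was 0.20 ± 1.26 in depleted livers (SD, n = 4) and -0.24 ± 1.06 in controls (SD, n = 6), a difference of 0.44 (exact permutation test, two-sided, p = 0.581, adjusted p = 0.786 over 6 ratio tests). This test had no sex term, while Angpt1 split by sex in controls. The ratio ran from -1.39 in depleted liver 1 to 1.29 in depleted liver 3, so the spread within the group exceeded the difference between groups. Platelets and megakaryocytes also carry Angpt1. Summed CPM of 11 platelet and megakaryocyte markers was 58.3, 49.0, 93.0 and 95.6 in depleted livers 1 to 4, against 13.5 to 23.4 in controls. Of 15 myeloid markers tested, 11 rose and 0 fell, with summed CPM of 1370 to 2410 against 70.1 to 527. The part of blood cells in the angiopoietin levels was not tested.

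The receptors varied widely within groups. Kdr, the main signalling receptor for VEGF-A, ran from 11.8 over a median of 60.4 to 84.2 CPM in controls and was 69.7, 70.6, 50.5 and 25 CPM in depleted livers 1 to 4. Flt1, the decoy-like receptor, ran from 4.20 over 14.8 to 20.7 CPM in controls and was 16.2, 16.8, 13.7 and 8.91 CPM in depleted livers. Tek, the angiopoietin receptor, ran from 3.54 over 17.6 to 22.8 CPM in controls and was 22.9, 20.1, 16.9 and 6.10 CPM in depleted livers. For all 3 the groups overlapped along most of their range, control 6 was the lowest control and depleted liver 4 the lowest depleted liver. Their log2 fold changes were -0.15 ± 0.46 for Kdr (adjusted p = 0.83), -0.12 ± 0.35 for Flt1 (adjusted p = 0.828) and -0.01 ± 0.49 for Tek (adjusted p = 0.988, edgeR). Without depleted liver 4 the estimates were 0.09, 0.06 and 0.26.

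Flt4 and Tie1 had higher estimates. Flt4, the VEGF-C receptor, ran from 7.50 over a median of 27.8 to 41.1 CPM in controls and was 52.8, 44.9, 50.8 and 24.4 CPM in depleted livers. Tie1, the partner of TEK, ran from 7.89 over 16.1 to 19.3 CPM in controls and was 25.2, 27.0, 24.9 and 14.3 CPM. In both cases depleted livers 1 to 3 lay above every control and depleted liver 4 lay within their range. Neither passed the test, with log2 fold changes of 0.60 ± 0.41 for Flt4 (adjusted p = 0.291) and 0.59 ± 0.27 for Tie1 (adjusted p = 0.116, edgeR). Without depleted liver 4, Tie1 passed (0.76, adjusted p = 0.0397).

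Endothelial markers were low with the receptors in control 6. In depleted liver 4, whose Kdr, Flt1 and Tek lay below every control except control 6, the 2 summaries of the 18 pan-endothelial markers differed: their summed CPM, 293, also lay below every control except control 6, while their mean log2 level, 3.66, lay above the highest control at 3.58. Of 18 pan-endothelial markers, 10 rose and 1 fell after depletion, with a median log2 fold change of 0.96 against -0.03 over all genes tested, and 5 were called (4 higher, 1 lower) when depleted liver 3 was left out. Pecam1, an adhesion molecule of endothelium that platelets and leukocytes also carry, rose from 21.4 ± 8.81 to 61.1 ± 16.3 CPM (log2 fold change 1.47 ± 0.43, adjusted p = 0.0187, edgeR), a call lost without depleted liver 3 (1.29, adjusted p = 0.111). Tal1, a transcription factor of endothelium and blood progenitors, rose by 1.89 ± 0.37 on the log2 scale (adjusted p = 0.00182), and S1pr1, a sphingosine phosphate receptor, fell by 1.09 (adjusted p = 0.00172). The shares called were 61.1% of the pan-endothelial and 15.4% of the sinusoidal markers, against 33.9% of all genes. Of 13 sinusoidal markers, Dnase1l3, a secreted nuclease, rose by 1.34 (adjusted p = 0.0178) and the transcription factor Gata4 fell by 1.0 (adjusted p = 0.000668), and the other 11 did not pass. The Dnase1l3 call was lost without depleted liver 3 (1.01, adjusted p = 0.145), and the count of 2 became 1 without that liver, 4 without hepatectomised liver 2, with DESeq2 or with library size alone, and 5 without control 6, without depleted liver 4 or in females only. Once the mean log2 level of the 18 pan-endothelial markers was subtracted in each library, 4 of the 9 genes had ranges that did not overlap between depleted and control livers, against 44.1% of 13813 genes: Vegfa, Vegfc and Flt1 lay lower and Angpt2 higher. Flt1 on this scale was -0.49 to 0.02 log2 units in depleted livers and 0.11 to 0.79 in controls. Kdr, Tek, Flt4 and Tie1 overlapped, with mean differences of -0.81, -0.76, -0.09 and -0.20 log2 units. The part of endothelial content in the receptor levels was not tested further.

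**Figure D3:**
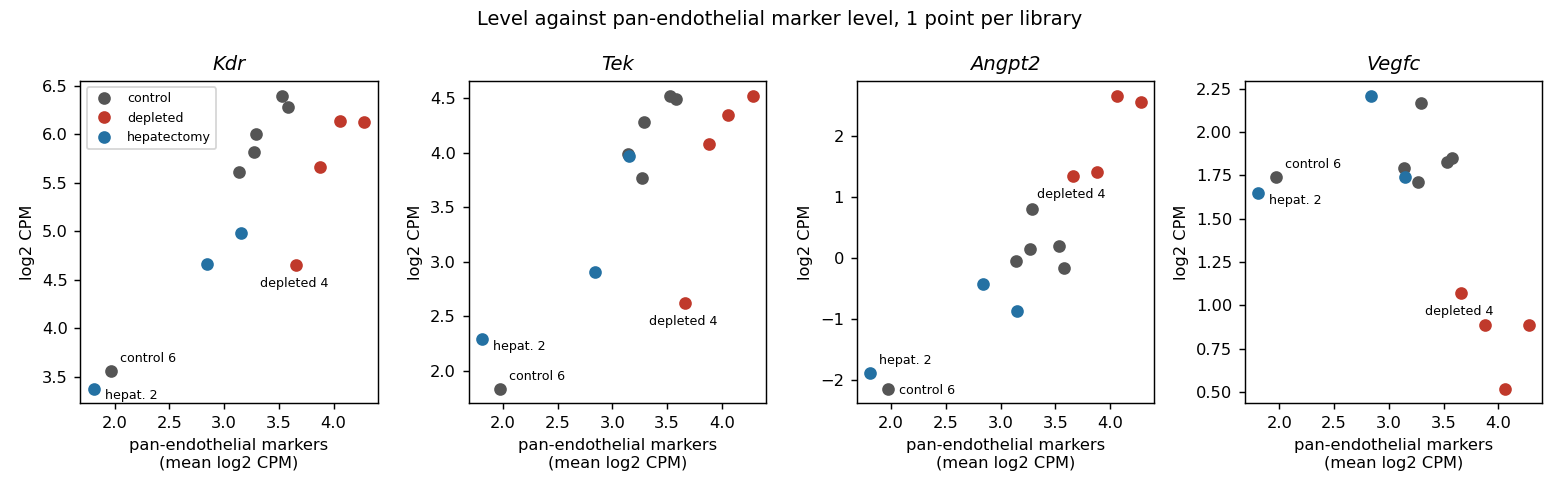
Log2 CPM (prior count 2) of Kdr, Tek, Angpt2 and Vegfc against the mean log2 CPM of 18 pan-endothelial markers, 1 point per library. Kdr and Tek are lowest where the markers are lowest (control 6 at 1.97 and hepatectomised liver 2 at 1.81), whereas Vegfc is near control level in these 2 libraries and low in the 4 depleted livers, whose marker level is 3.66 to 4.28.

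Among 15 other tested genes of the ligand and receptor system (16 in the list), 1 rose and 4 fell after depletion, with a median log2 fold change of -0.23. The share called was 33.3%, close to the 33.9% of all genes. Ccbe1, a secreted cofactor for the proteolytic activation of VEGF-C, ran from 2.91 over a median of 8.22 to 10.1 CPM in controls and was 0.0643, 0.0224, 0.0524 and 0.691 CPM in depleted livers 1 to 4. The groups were far apart, and the highest depleted liver was number 4, the one that also held the most stellate cell marker reads. Ccbe1 fell by 5.41 on the log2 scale (SE 0.72, adjusted p = 0.000146, edgeR), and passed under all 23 alternatives. Adamts3, the protease that CCBE1 assists, was scarce at 0.206 ± 0.166 CPM in controls and 0.0838 ± 0.0216 CPM after depletion and did not pass (adjusted p = 0.155). Svep1, a matrix protein that lymphatic vessel growth needs, fell by 1.88 (adjusted p = 0.0289), and the ligands Vegfd and Vegfb fell by 1.24 (adjusted p = 0.0369) and by 0.64 (adjusted p = 0.0381). Sema3a, a semaphorin that binds neuropilin-1, rose by 1.43 on the log2 scale (adjusted p = 0.0285). These last 4 calls were fragile: the count of 5 in the list became 1 without depleted liver 1 or 3, 2 without control 3, control 5 or depleted liver 2, and 3 without control 1. Neither neuropilin co-receptor passed the test, with log2 fold changes of -0.40 for Nrp1 and 0.87 for Nrp2.

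Genes that act just below the receptors, and genes that VEGF is known to induce, gave calls in both directions, beside the 18.9% higher and 15% lower over all genes. Of 16 signalling genes, 7 rose and 2 fell (median log2 fold change 0.46); 5 were called when depleted liver 3, the only male of its group, was left out, and 4 in females only (4 higher, 0 lower). Plcg1, the phospholipase that KDR recruits, fell by 0.59 (69.5 ± 13.7 to 43.6 ± 3.18 CPM, adjusted p = 0.00405), and Pik3ca, a catalytic subunit of phosphoinositide 3-kinase, fell by 0.43 (adjusted p = 0.00817, edgeR); neither passed in females only (adjusted p = 0.13 and 0.105). The largest rises were those of Sh2d2a, an adaptor known from T cells, and Dok2, an adaptor of blood cells that also binds TEK, by 4.46 and 3.24 on the log2 scale. Of 15 VEGF-induced genes, 6 rose and 1 fell (median 0.75). Egr3, an early response transcription factor, rose by 3.8 and the chemokine receptor Cxcr4 by 3.63, both of which leukocytes also express. Egr3 stood at 0.036 ± 0.056 CPM in controls, below the level that 3 counts stand for, and at 0.54 ± 0.217 CPM after depletion. Hey1, a Notch target of endothelium, fell by 1.82 (0.532 ± 0.212 to 0.166 ± 0.0563 CPM, adjusted p = 0.0167). Among 18 hypoxia-response genes 3 rose and 2 fell (median 0.23), with the glycolytic regulator Pfkfb4 up by 2.25 and the carbonic anhydrase Car9 up by 2.06. Car9 was scarce, at 0.17 ± 0.0286 CPM in controls and 0.761 ± 0.512 CPM after depletion. The prolyl hydroxylase Egln3 was down to 6.24 ± 3.58 from 16.4 ± 5.99 CPM and the MYC antagonist Mxi1 lower by a log2 fold change of -0.37. Without depleted liver 3 the count in that list was 3, with Egln3 (adjusted p = 0.0545) and Mxi1 (adjusted p = 0.0584) lost, and the calls of Egr3 (adjusted p = 0.0503) and Pik3ca (adjusted p = 0.0587) were lost as well. In females only the hypoxia-response count was 2, with Car9 also lost (adjusted p = 0.0632).

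Hepatectomised livers at 72 h were set against the same 6 controls to ask whether the system differs in a regrowing liver. In these 3 livers no ligand or receptor of the set passed the test: 0 of 9 were called by edgeR, DESeq2 or limma-voom, against 8.42% of all genes in the edgeR fit (6.06% higher, 2.36% lower). At an unadjusted p under 0.05 there were 3, Vegfa, Kdr and Tie1, against 24.3% of all genes. The estimate was below 0 for 8 of the 9, with a median log2 fold change of -0.65 against -0.02 over all genes, and ranges overlapped for all 9. The livers were in growth at this time: 19 of 20 proliferation genes rose, and Mki67, a marker of cycling cells, rose from 4.98 ± 5.76 to 60.9 ± 53.2 CPM (log2 fold change 3.90 ± 0.92, adjusted p = 0.0231, edgeR). The summed CPM of the 20 genes was 385, 1230 and 191 in hepatectomised livers 1 to 3, against 49.4 to 124 in controls, and so was highest in liver 2, which had the fewest endothelial marker reads.

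Vegfa was 58.1, 63.8 and 101 CPM in hepatectomised livers 1 to 3. The 2 male livers lay below every control and the female liver lay among them. The log2 fold change was -0.65 ± 0.23 (adjusted p = 0.109, edgeR), and Vegfa passed in the edgeR fits without hepatectomised liver 3 (-1.0, adjusted p = 0.0357), without control 4 (-0.75, adjusted p = 0.0496), among males alone (-1.10, adjusted p = 0.0429) and with scaling by library size alone (-0.86, adjusted p = 0.0252), a scaling that moved the median of all genes to -0.24. Vegfc, at 3.29, 3.09 and 4.56 CPM, covered the control range (log2 fold change 0.03 ± 0.22, adjusted p = 0.949). Angpt1, at 0.588, 0.646 and 0.723 CPM, was near the level of the male controls in all 3 livers (log2 fold change -0.29 ± 0.67). Angpt2, at 0.5, 0.225 and 0.698 CPM, lay below 5 of 6 controls in each liver (log2 fold change -1.02 ± 0.58, adjusted p = 0.306).

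Kdr gave the lowest estimate of the receptors. Its level was 31.5, 10.3 and 25.1 CPM in hepatectomised livers 1 to 3, all below every control except control 6, at 11.8 CPM. The log2 fold change was -1.26 ± 0.54 (adjusted p = 0.179, edgeR), and Kdr passed without control 6 (-1.52, adjusted p = 0.049) and with the replicate number as a block (-1.74, adjusted p = 0.039). Flt1 was 12.2, 5.33 and 12 CPM, Flt4 25.6, 8.03 and 26.1 CPM, Tek 15.6, 4.83 and 7.46 CPM and Tie1 10.5, 5.28 and 11.6 CPM. In each of these the liver with the fewest endothelial marker reads, hepatectomised liver 2, was the lowest of the 3. Their log2 fold changes were -0.45 ± 0.40, -0.41 ± 0.47, -0.71 ± 0.58 and -0.67 ± 0.31, with adjusted p from 0.205 to 0.638 (edgeR). Of the 18 pan-endothelial and 13 sinusoidal markers, 0 passed in either direction, with medians of -0.44 and -0.62. Among the pan-endothelial markers 3 were lower with DESeq2 or with library size alone, and 2 without control 6 or hepatectomised liver 1; among the sinusoidal markers 2 were lower without control 6 or with library size alone. Relative to the pan-endothelial markers, the ranges of all 9 genes overlapped those of the controls (background 6.39%).

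Kdr and Flt1, the receptors that share VEGF-A, were also compared within each library. The log2 ratio of Flt1 to Kdr was -1.37, -0.95 and -1.06 in hepatectomised livers 1 to 3, and ran from -2.19 over a median of -1.95 to -1.48 in controls. No hepatectomised liver reached down to the controls. The difference was 0.79, a 1.73-fold higher ratio, with an exact permutation p of 0.0119 (two-sided), the smallest that 84 arrangements allow. The adjusted p was 0.0714 over the 6 ratio tests, which misses the threshold. With so few arrangements this test could pass only if other ratio tests also gave small p-values. The difference stayed between 0.71 and 0.91 when each library was left out in turn. The highest control ratio was that of control 6, the control with the fewest endothelial marker reads. In depleted livers the ratio, at -2.11, -2.07, -1.88 and -1.49, lay within the control range (difference 0.04, exact permutation p = 0.81).

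The other genes of the pathway were read against the 8.42% called over all genes after hepatectomy. Of 15 other genes of the system 1 rose and 0 fell: Sema3c, a semaphorin that binds neuropilins, at 2.09, 1.29 and 7.41 CPM against 0.480 to 1.37 CPM in controls (log2 fold change 1.94 ± 0.54, adjusted p = 0.0456, edgeR). That call was lost in 13 of 23 alternatives, among them without hepatectomised liver 3 (1.2, adjusted p = 0.31). Among the 16 signalling genes Plcg1 fell by 0.86 (to 39.0 ± 2.95 CPM, adjusted p = 0.00437), while the adaptors Shb and Grb2 rose by 1.12 (adjusted p = 0.00924) and 0.57 (adjusted p = 0.0217). Both adaptor calls were lost without hepatectomised liver 2 (adjusted p = 0.0543 and 0.116), with the replicate block (adjusted p = 0.0546 and 0.06) and in males only, and that of Grb2 also without control 1 or control 2, which left Plcg1 as the 1 call of the list in the first 3 cases. Of 15 VEGF-induced genes, Rcan1, a calcineurin inhibitor, and Cd34, a sialomucin of capillary endothelium and progenitors, rose by 1.30 (adjusted p = 0.0397) and 1.41 (adjusted p = 0.0359), calls lost in 12 and 11 of 23 alternatives. Both were lost without hepatectomised liver 3 (adjusted p = 0.0569 and 0.245), without control 3 or control 4, with the replicate block and with library size alone, which left 0 calls in the list. Of 18 hypoxia-response genes Pdk1, a brake on pyruvate dehydrogenase, fell by 1.22 (adjusted p = 0.0189) and the others did not pass. The Pdk1 call was lost without hepatectomised liver 1 (adjusted p = 0.0513) or 2 (adjusted p = 0.0946) and without the sex term (adjusted p = 0.0585), which left 0 calls in the list, and the count was 2 without control 4 or depleted liver 1 or with library size alone, and 3 with DESeq2 (2 higher, 1 lower).

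**Figure D4:**
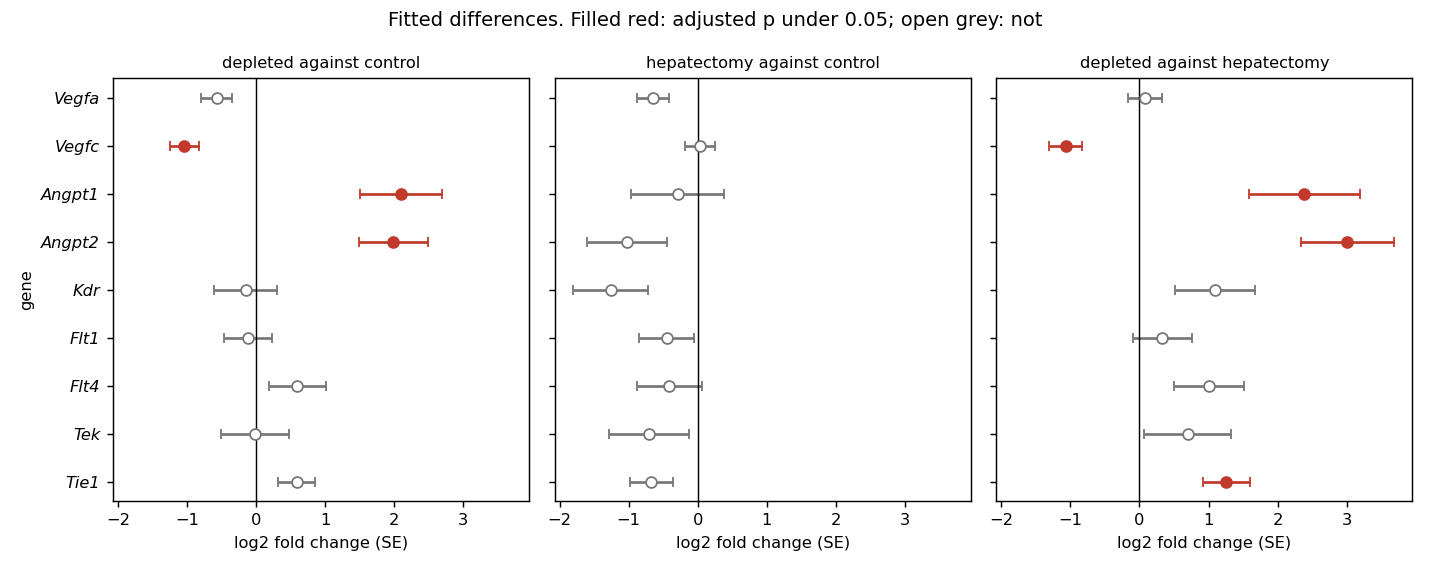
Fitted log2 fold changes (points) with 1 standard error (bars) of the 9 tested genes in the 3 comparisons, from the edgeR fit over 13 libraries. Filled points mark an adjusted p under 0.05: Vegfc, Angpt1 and Angpt2 after depletion against control, 0 genes after hepatectomy, and these 3 plus Tie1 between depleted and hepatectomised livers.

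Depleted and hepatectomised livers were then compared with each other, as livers depleted of stellate cells and livers in regrowth that kept them. Angpt2, Angpt1 and Tie1 were higher in depleted livers and Vegfc was lower, 4 calls among 9 tested genes, against 23.4% called over all genes (13.3% higher, 10.1% lower). The same 4 genes were those with an unadjusted p under 0.05, against 36.1% of all genes, and those whose ranges did not overlap, against 34% of all genes. Angpt2 differed most, at 4.31 ± 2.04 CPM (SD, n = 4) against 0.474 ± 0.238 CPM (SD, n = 3), an 8.07-fold difference (log2 3.01 ± 0.67, adjusted p = 0.00632, edgeR) that passed in all 22 alternatives. Vegfc stood at 0.476 of its level after hepatectomy (log2 -1.07 ± 0.24, adjusted p = 0.00741), a call lost without hepatectomised liver 3 (-0.82, adjusted p = 0.079) and with scaling by library size alone (-0.74, adjusted p = 0.0605), which moved the median of all genes to 0.27. Tie1 was 2.40-fold higher (log2 1.26 ± 0.34, adjusted p = 0.0186), with all 4 depleted livers, at 14.3 to 27.0 CPM, above the 3 hepatectomised ones, at 5.28 to 11.6 CPM. It missed the threshold without depleted liver 3 (adjusted p = 0.104) or hepatectomised liver 2 (adjusted p = 0.0608), and in the fit of these 2 groups alone (adjusted p = 0.0645).

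Angpt1 was 5.24-fold higher in depleted livers (log2 2.39 ± 0.80, adjusted p = 0.0488, edgeR), and 15 of 22 alternatives lost the call, with adjusted p from 0.00302 to 0.267 over all of them. Kdr (2.15-fold) and Flt4 (2.01-fold) had estimates of similar size to Tie1 but wider errors, and did not pass (adjusted p = 0.197 and 0.18). With the replicate number as a block both passed, Kdr at 1.33 (adjusted p = 0.0308) and Flt4 at 1.25 (adjusted p = 0.0328), and 6 of the 9 genes were called. Vegfa (log2 0.08 ± 0.25), Tek (0.70 ± 0.63) and Flt1 (0.33 ± 0.43) did not pass the test. The log2 ratio of Flt1 to Kdr was lower in depleted livers by 0.76 (exact permutation p = 0.0571, adjusted p = 0.171), and that of Angpt2 to Angpt1 differed by 0.78 (exact permutation p = 0.371). Endothelial markers moved beside these genes: 7 of 18 pan-endothelial markers were higher in depleted livers and 0 lower (median 1.14), a count of 4 without depleted liver 3 or hepatectomised liver 2 and of 13 without control 6. Sinusoidal markers gave 5 higher and 0 lower of 13, and 0 calls without depleted liver 3 or hepatectomised liver 3. Over all genes 23.4% were called. Relative to the pan-endothelial level, Vegfc and Flt1 lay lower and Angpt2 higher without overlap, 3 of 9 genes against 70.6% of all, and Tie1 overlapped.

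Of the 15 other genes of the system, 3 were higher and 4 lower in depleted than in hepatectomised livers (46.7% called, against 23.4% of all genes). Ccbe1 stood lower by a log2 fold change of -4.88 (adjusted p = 0.000974), Svep1 by -2.62 (adjusted p = 0.0143), Adamts3 by -2.56 (adjusted p = 0.0415) and Sema3c by -2.51 (adjusted p = 0.0117, edgeR). Sema3a and the semaphorin receptors Plxnd1 and Plxna1 were higher, by 1.75, 1.13 and 0.69 on the log2 scale. This count became 3 without depleted liver 1 or 2, 4 without control 1 or control 2, 1 without depleted liver 3 and 2 without hepatectomised liver 3. In the next 3 lists the shares called were near or below the 23.4% of all genes. They were 26.7% of the VEGF-induced, 25% of the signalling and 11.1% of the hypoxia-response genes. Of the 15 VEGF-induced genes 4 were higher, led by the peptide ligand Apln (log2 3.70, adjusted p = 0.0203) and by Pdgfb (log2 3.44, adjusted p = 0.000128), the growth factor that binds pericytes to endothelium and that platelets also carry. Of 16 signalling genes 3 were higher and Shb was lower (-1.14, adjusted p = 0.00591), while library size alone gave 9 calls in that list and 7 among the VEGF-induced genes. Of 18 hypoxia-response genes Pdk1 (1.06) and Pfkfb4 (1.5) were higher. Without depleted liver 3 both hypoxia-response calls were lost (adjusted p = 0.0883 and 0.0959), and 1 remained without hepatectomised liver 2 or 3. Apln was scarce, at 0.747 ± 0.503 CPM in depleted livers, and its call was lost without hepatectomised liver 3 (2.57, adjusted p = 0.113).

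For each gene called in some comparison, the genes with the nearest pattern were found by the root mean square difference of gene-centred log2 CPM over the 13 libraries, as a description. Vegfc was nearest to Bambi, a decoy receptor of the TGF-beta family, at 0.20 log2 units, then to Bri3bp at 0.22, where the SD of Vegfc itself was 0.52. Bambi stood at 3.66, 1.65 and 3.78 CPM in control, depleted and hepatectomised livers on average. Tie1 (SD 0.68) was nearest to Adgrg3 at 0.19, Sh3tc1 at 0.20 and Shank3 at 0.23. Angpt2 (SD 1.48) had no gene nearer than Arrb1 and Chst2, both at 0.47, with Pik3cg, a phosphoinositide 3-kinase subunit of leukocytes, at 0.48. Angpt1 (SD 1.42) was matched least, with Nhsl2 at 0.71 and Gstt3 and the interferon-induced GTPase Iigp1 both at 0.78.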

How the data were processed

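Whole-liver RNA of 13 libraries was measured by stranded mRNA sequencing, from 500 ng of RNA each over 2 flowcell lanes, per the labels' protocols. The authors deposited 1 file of unnormalised gene counts, which also lists gene lengths. STAR 2.7.1a, SAMtools 1.15.1, featureCounts 1.6.4 and the build mm10 are named in the submitters' processing notes; their settings, among them strand and multi-mapped reads, are not given in the sources used here, so reads shared with overlapping or antisense genes cannot be told apart. Exon coordinates overlapped the same GENCODE M21 gene for 99.94% of 21818 matched IDs, and 21741 of 22048 genes had a symbol.

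Groups, sex and replicate numbers came from the labels. Counts were filtered with filterByExpr, which kept 13831 genes, scaled by TMM factors and tested by quasi-likelihood F-tests in edgeR 4.0.16 (R 4.3.3), with group and sex in 1 model over 13 libraries, two-sided, Benjamini-Hochberg threshold 0.05. CPM values are TMM-scaled, except the values that 3 counts stand for. Log2 levels used a prior count of 2 and ratios one of 0.5. The exact permutation tests of ratios had no sex term, and the balance of the sexes differed between groups. Floors cover counting error only, since reads carried no molecular identifiers. Within groups, the lowest median chi-square between libraries was 4.60 or more, where 1 library split in parts would give 0.45, so each of the 13 counted as a replicate. The test was tested on simulated counts. The members and gene lists were chosen with earlier results of these data known. Named are all 10 members, up to 2 largest rises and 2 largest falls per list and comparison, the 3 nearest genes of each called member (1 of them is not reported here), and Pecam1, Lrat, Mki67 and Alb; Adamts3, Nrp1, Nrp2, Vegfb, Vegfd, Sema3c, Plxna1, Ccl21a and Mmrn1 between depleted and hepatectomised or control livers were added after their values were seen.

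Same-numbered libraries are different samples, several of them of different sex. Correlations of their deviations from group means ran from -0.34 to 0.07 between depleted and control, from 0.11 to 0.52 between hepatectomised and control and from -0.35 to 0.00 between depleted and hepatectomised livers; with sex removed they became -0.10 to 0.42, -0.19 to 0.08 and 0.04 to 0.27. The number is left out of the main model. Alternatives were the scaling (RLE, library size alone), no filter, DESeq2 1.42.0, limma-voom (limma 3.58.1), no sex term, the 2 groups alone, a replicate block, 1 sex alone and each library left out. Leaving out control 6 and hepatectomised liver 2 together was chosen after seeing the data. No batch or date is given, so a batch that followed the groups cannot be told apart from them.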

Additional observations from a re-analysis of the deposited data

Results flagged for a closer look

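Of 24 sets of 4 or more libraries of 1 group examined for a library far from the rest, 3 held one, where chance alone would give about 1.2. In controls, Vegfc was highest in control 2, at 4.45 CPM against 3.57 CPM in the next library, a gap of 0.732 of the whole range. In depleted livers, Pgf was at 0.111 CPM in liver 4 and at 0 in the others (gap 1.0 of the range), which rests on 5 counts. Tie1 was lowest in depleted liver 4, at 14.3 CPM against 24.9 CPM in the next (gap 0.836 of the range).

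In 3 cases every male library of a group moved one way against the mean of same-sex controls and every female library the other way; these differences between the sexes were not tested. After hepatectomy, Vegfa differed by -1.07 log2 units in males and 0.01 in the female. Vegfc after hepatectomy differed by -0.18 in males and 0.38 in the female. Flt1 after depletion differed by 0.54 in the male and -0.39 in females; the male value rests on control 6, at 4.20 CPM, since the depleted male, at 13.7 CPM, lay between the other male controls at 12.4 and 16.1 CPM. In each case 1 sex is a single library or, for the hepatectomised males, a pair of them. All 9 tested genes were examined in both groups, and the number of such cases that chance would give was not worked out.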

How the results depend on the processing

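Vegfc and Angpt2 after depletion against control, and Angpt2 between depleted and hepatectomised livers, kept direction and call under all alternatives. Genes called after depletion against control numbered 4692, and 2695 in females only. After hepatectomy 1164 genes were called, against 2192 with library size alone (626 higher, 1566 lower, against 838 and 326), 1939 with DESeq2, 632 with the replicate block, 613 in males only and 412 without control 6 and hepatectomised liver 2. Between depleted and hepatectomised livers 3236 were called (1837 higher, 1399 lower), 2105 in a fit of the 2 groups, and library size alone gave 3102 higher and 610 lower. With library size alone, depletion against control gave 2884 higher and 1471 lower, against 2614 and 2078. Members called after hepatectomy became 1 (0 before) with library size alone, with the block and in males only; between depleted and hepatectomised livers they became 2 (4 before) in the fit of the 2 groups. Leaving out 1 library at a time gave 2960 to 4928 genes and 2 to 4 members after depletion, 483 to 1458 genes and 0 to 1 members after hepatectomy, and 1709 to 3850 genes and 2 to 4 members between them. The lowest counts came without depleted liver 3 (2960 and 1709) and without hepatectomised liver 2 (483); without control 1 or control 2 hepatectomy gave 692 and 742 genes.

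Among the members and ratios, signs turned for uncalled values only. For Tek after depletion the estimate was 0.07 with library size alone and 0.02 without the sex term. For Vegfc after hepatectomy it was -0.18 with library size alone, 0.00 with the replicate block and -0.21 in males only. For Vegfa between depleted and hepatectomised livers it was -0.08 in the fit of the 2 groups and -0.01 without control 6 and hepatectomised liver 2. Over single left-out libraries, ranges that cross 0 were -0.19 to 0.26 for Tek, -0.32 to 0.09 for Kdr and -0.32 to 0.06 for Flt1 after depletion, -0.19 to 0.14 for Vegfc and -0.52 to 0.22 for Angpt1 after hepatectomy, and -0.05 to 0.50 for Vegfa between them. For the log2 ratios they were -0.10 to 0.12 for Flt1 to Kdr after depletion and -0.63 to 0.10 for Angpt2 to Angpt1 after hepatectomy. The block called 2, 1 and 6 members in the 3 comparisons. The cause of these shifts was not tested. Depth limits Pgf, with 7 counts at most.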

Other observations

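A further list of endothelial genes outside the VEGF and angiopoietin system gave 3 calls of 12 after depletion, against 33.9% of all genes. Of 12 markers of lymphatic and large-vessel endothelium, 2 rose and 1 fell after depletion: Selp, the P-selectin that platelets also carry, rose by 2.38 ± 0.27 on the log2 scale (adjusted p = 3.86e-05), the clotting factor carrier Vwf by 0.98 ± 0.34 (adjusted p = 0.0404), and Nr2f2, a transcription factor of venous and lymphatic endothelium, fell by 1.19 ± 0.19 (adjusted p = 0.000394, edgeR). After hepatectomy Nr2f2 fell by 1.31 ± 0.20 (adjusted p = 0.00342), from 49.7 ± 11 to 20.1 ± 1.39 CPM, and Pdpn, podoplanin of lymphatic endothelium and other cells, rose from 0.151 ± 0.0447 to 2.67 ± 1.19 CPM (adjusted p = 0.000116). The other 10 of the 12 did not pass after hepatectomy, among them the lymphatic genes Ccl21a and Mmrn1 with estimates of -1.15 and -1.41, and 8.42% of all genes were called there. Both comparisons share the 6 controls.

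Of 10 tested smooth muscle and portal fibroblast markers, 1 rose and 3 fell after depletion. The mural Notch receptor Notch3 fell by 4.81 on the log2 scale (adjusted p = 1.18e-05, edgeR), and Thy1, which T cells also express, rose by 4.0 (adjusted p = 1.05e-05). After hepatectomy 3 rose and 0 fell, among them elastin, Eln, from 1.84 ± 0.646 to 6.77 ± 6.82 CPM (adjusted p = 0.0416). Hepatocyte markers gave 1 higher and 3 lower of 12 after depletion, with the cytochrome Cyp2e1 lower by a log2 fold change of -3.24 (adjusted p = 4.65e-06), the glutamine synthetase Glul by -1.35 and the gluconeogenic enzyme Pck1 higher by 0.91, and 1 higher and 0 lower after hepatectomy, and Alb did not pass in either (log2 fold changes -0.03 and 0.69). Cholangiocyte markers gave 1 and 2 higher of 7, and proliferation genes 13 higher of 20 after depletion. Over all genes 33.9% were called after depletion and 8.42% after hepatectomy. The shares were 40% and 30% of the smooth muscle and portal fibroblast list, and 33.3% and 8.33% of the hepatocyte list. They were 14.3% and 28.6% of the cholangiocyte list and, after depletion, 65% of the proliferation list.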
